A study of Homo sapiens with 6 samples.

Results

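The 59 genes described here encode subunits of the mitochondrial respiratory chain and ATP synthase from the nuclear genome. They were chosen by name and comprise 26 subunits of complex I, 4 of complex II, 7 of complex III, 10 of complex IV and 12 of complex V. Each symbol matched 1 of the 60660 gene IDs in the deposited tables, and all 59 passed the filter on low values. They were measured by RNA-seq in OCI-AML3, a long-established human line derived from acute myeloid leukaemia. In 3 libraries the cells overexpressed SLC2A3, the gene of the glucose transporter GLUT3, and in 3 they carried an empty vector, which the titles call pLenti. All cultures, controls included, received 250 µM vitamin C. Cells without vitamin C are not analysed here, and the labels do not say whether each line is 1 clone, which promoter drives SLC2A3, or whether replicates are separate cultures. The p-values therefore measure only the spread between these libraries, which may be technical.

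The respiratory chain passes electrons to oxygen and stores the energy as a proton gradient. Complex I (NADH dehydrogenase) takes electrons from NADH, and complex II (succinate dehydrogenase) takes them from succinate as a step of the citric acid cycle. Both hand them to ubiquinone, then complex III and cytochrome c carry them to complex IV (cytochrome c oxidase), which reduces oxygen. Complex V (ATP synthase) uses the gradient to make ATP. Complexes I, III, IV and V combine nuclear-encoded subunits with subunits translated inside the mitochondrion, whereas complex II is wholly nuclear-encoded and pumps no protons. Leukaemia cells with high oxidative phosphorylation have been studied for their dependence on this chain.

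Values are normalised reads, obtained by dividing each library's gene read counts by a single factor, and depth was 31054462 to 35770556 recovered reads per library. SLC2A3 itself had 4056, 3716 and 4054 normalised reads in SLC2A3 overexpression libraries and 1194, 1183 and 1257 in empty vector libraries. That is a 3.25-fold difference, with no overlap between the groups. All 10 myeloid leukaemia markers examined had reads, and of them only FLT3 passed the test, at a log2 change of -0.21 (limma adjusted p = 0.0277). CEBPE was low, at means of 19.2 in SLC2A3 overexpression and 11.7 in empty vector. That is no higher than the epithelial marker KRT8, at 23.0 and 22.8. Summed markers of epithelial, fibroblast and kidney lines spanned 325 to 333 normalised reads in SLC2A3 overexpression libraries and 271 to 330 in empty vector libraries, and none of the 9 tested passed. Lymphoid markers summed to 362 to 401 in SLC2A3 overexpression libraries and 370 to 459 in empty vector libraries, with CD3D, CD3E and MS4A1 listed at 0. Erythroid markers summed to under 5 in every library. The noncoding RNA RN7SL1 had 2233, 6026 and 1922 normalised reads in SLC2A3 overexpression libraries and 538, 1812 and 705 in empty vector libraries. Replicate 2 had the most in each group, so results were also computed without both replicate 2 libraries. That does not remove the difference between the groups, which did not overlap and differed 3.33-fold. Its adjusted p was 0.00086 in limma, 2.6e-05 in edgeR and 0.133 in DESeq2. Whether it goes with the member values was not tested.

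Promoters of respiratory chain genes are a textbook setting for the factors NRF1, GABPA (also called NRF2) and YY1, and the stretches below show such motifs in 2 members with different readouts. COX5B, a complex IV subunit, had the largest change of all 59 members. SDHA, the flavoprotein of complex II, had values that overlapped between the groups. The sequences are from RefSeq, build GRCh38.p14, plus strand. Capitals mark the GABPA motif CCGGAAGT in the COX5B stretch, chr2:97645812-97646066, and the NRF1 motif in the SDHA stretch, read as GCGCA and GCGC with any 1 base between them, chr5:218070-218270.

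COX5B: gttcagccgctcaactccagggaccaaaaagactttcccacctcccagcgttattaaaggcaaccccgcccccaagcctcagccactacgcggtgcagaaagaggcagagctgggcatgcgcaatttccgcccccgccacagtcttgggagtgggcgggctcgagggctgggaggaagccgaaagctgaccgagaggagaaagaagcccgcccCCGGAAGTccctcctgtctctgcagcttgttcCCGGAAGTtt

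SDHA: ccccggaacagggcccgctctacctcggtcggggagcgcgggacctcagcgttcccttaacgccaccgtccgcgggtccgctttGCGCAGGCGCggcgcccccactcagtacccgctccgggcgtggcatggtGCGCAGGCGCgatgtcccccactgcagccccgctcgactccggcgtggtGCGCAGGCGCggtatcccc

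Counted from the RefSeq start of each gene, the GABPA motif began at -37 and -5 in COX5B. The NRF1 motif began at -166, -117 and -68 in SDHA, and a further copy at -19 lies beyond the stretch shown. GENCODE places both gene starts further upstream, at 97646040 for COX5B and 218241 for SDHA. By the GENCODE starts, the COX5B copy at -5 and the SDHA copies at -68 and -19 lie inside the gene. Promoter windows, 250 bases before to 50 after the RefSeq start, were matched for 48 of the 59 members. On either strand, the NRF1 motif was present for 10 members (20.8%), against 9.67% of 15843 protein-coding genes with promoter windows. CCGGAAGT was present for 10 (20.8%), against 6.97%. AAGATGGC, the YY1 motif, was present for 9 (18.8%), against 4.66%. At least 1 of these motifs stood in 24 of the 48 matched members, against 19.0% of those protein-coding genes. Some genes have several windows, and a motif in any of them was counted. A motif match is a description of letters, not of binding. COX8A, with the lowest log2 change of all 59 members, also has CCGGAAGT. No window was matched for COX6C or ATP5F1D, which rose together with COX5B as described below. Whether a motif goes with the change was not tested.

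Of the 59 subunit transcripts, 3 rose with SLC2A3 overexpression and 0 fell. The 3 were COX5B and COX6C of complex IV and ATP5F1D of complex V, each by less than 1.3-fold. By edgeR and DESeq2 0 members fell as well, and 0 were lower at an unadjusted limma p under 0.05. Across all 28015 genes tested, 0.692% rose and 0.8% fell by limma at an adjusted p under 0.05. Among 5784 abundant protein-coding genes, those with a mean of at least 1000 normalised reads, 2.21% rose and 3.16% fell. Of the members, 52 were that abundant, including the 3 that rose. In this bulk RNA, fewer cells with a transcript and less of it per cell cannot be told apart.

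COX5B encodes a zinc-binding nuclear subunit of cytochrome c oxidase on the matrix side. It had 5435, 6136 and 5496 normalised reads in SLC2A3 overexpression libraries, against 4045, 5045 and 4390 in empty vector libraries. The groups did not overlap, and replicate 2 was the highest library in both. Means were 5689 ± 388 and 4493 ± 508 (SD, n = 3 each), a difference of 26.6% and a log2 change of 0.34 (SE 0.061, limma adjusted p = 0.0016). Its gene lies on chromosome 2 from 97646040 to 97648383 (ENSG00000135940.7, GRCh38, GENCODE 29).

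COX6C, a small membrane-spanning subunit of the same oxidase, had 5496, 5314 and 5587 normalised reads in SLC2A3 overexpression libraries. In empty vector libraries it had 4703, 4637 and 4634. All SLC2A3 overexpression libraries stood above all empty vector libraries, by 17.3% on average. The log2 change was 0.23 (SE 0.045, limma adjusted p = 0.0044), and without SLC2A3 overexpression replicate 3 the adjusted p was 0.0620. This gene (ENSG00000164919.11) lies on chromosome 8.

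ATP5F1D encodes the delta subunit of the rotating central stalk of ATP synthase. It had 9709, 10126 and 9866 normalised reads in SLC2A3 overexpression libraries and 8149, 8657 and 8493 in empty vector libraries. The groups were apart by 17.4% on average, and again replicate 2 was highest in each. The log2 change was 0.23 (SE 0.041, limma adjusted p = 0.0018). The gene lies on chromosome 19 from 1241746 to 1244826 (ENSG00000099624.8). None of COX5B, COX6C and ATP5F1D has exon bases shared with or opposite to another annotated gene.

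A pair of further members passed when edgeR's quasi-likelihood test was run on the recovered reads, where 1.53% of 18630 genes rose and 1.76% fell. NDUFS6, a zinc-binding accessory subunit of complex I, had 8457, 7786 and 8217 normalised reads in SLC2A3 overexpression libraries and 7292, 7519 and 7094 in empty vector libraries. Its groups did not overlap, and its log2 change of 0.16 had an adjusted p of 0.0674 in limma and 0.0332 in edgeR. UQCRB, a ubiquinone-binding subunit of complex III, had 10426, 10522 and 10251 normalised reads in SLC2A3 overexpression libraries and 9455, 9431 and 9449 in empty vector libraries. The empty vector libraries were nearly identical and all below the SLC2A3 overexpression libraries, with a log2 change of 0.14 and an adjusted p of 0.0763 in limma and 0.0475 in edgeR. DESeq2 called those 5 and also NDUFB7, UQCRC1 and COX7A2, all higher, where 3.49% of 9827 genes with an adjusted p rose. Without empty vector replicate 2 limma called 5 members, adding NDUFS6 and COX7A2, all higher, where 0.828% of all tested genes rose. Without both replicate 2 libraries it called 7, all higher, where 1% of all tested genes rose.

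**Figure D1:**
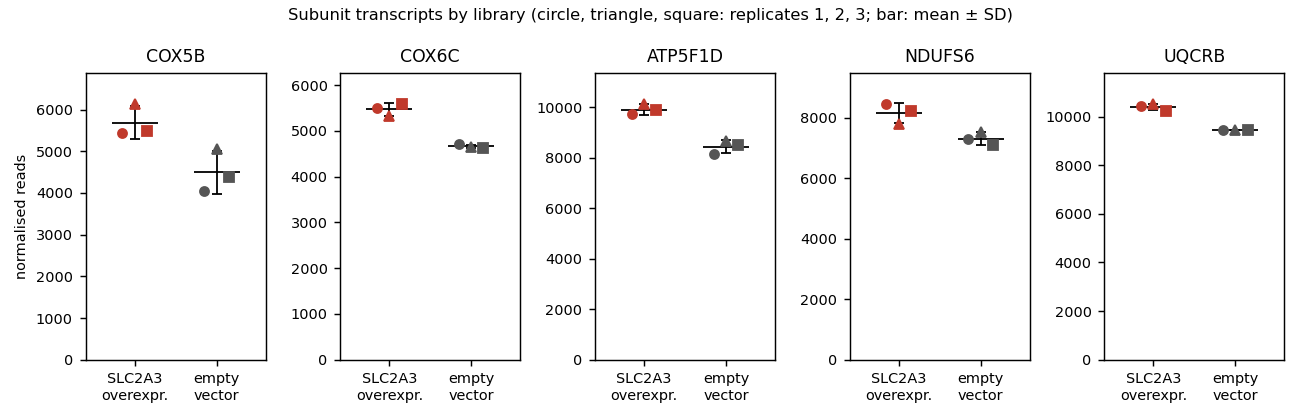
Normalised reads of COX5B, COX6C, ATP5F1D, NDUFS6 and UQCRB in each library, on axes that start at 0, with SLC2A3 overexpression at left and empty vector at right. Circles, triangles and squares are replicates 1, 2 and 3, and bars give the mean ± SD of 3 libraries. The groups do not overlap for any of the 5, and COX5B is highest in replicate 2 of both groups.

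Most other members differed little, and more of them in the positive direction. The log2 change was positive for 46 of 59 members (78.0%), against 50.3% of all tested genes and 44.2% of abundant protein-coding genes. The median member change was 0.06 on the log2 scale, beside 0.00 for all tested genes. The difference was under 1.1-fold either way for 48 members. Groups did not overlap for 19 members, all higher with SLC2A3 overexpression, beside 8.04% of all tested genes higher and 8.27% lower. Among abundant protein-coding genes those shares were 12.6% and 17.3%. An unadjusted limma p under 0.05 was reached by 15 members, beside 11.8% of all tested genes. That share was not computed for abundant protein-coding genes, whose groups were more often without overlap than those of all tested genes. Summed over the 59 members, 0.870%, 0.870% and 0.867% of normalised reads fell on them in SLC2A3 overexpression libraries, and 0.823%, 0.847% and 0.813% in empty vector libraries. Empty vector replicate 2 was the control library closest to the SLC2A3 overexpression libraries.

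**Figure D2:**
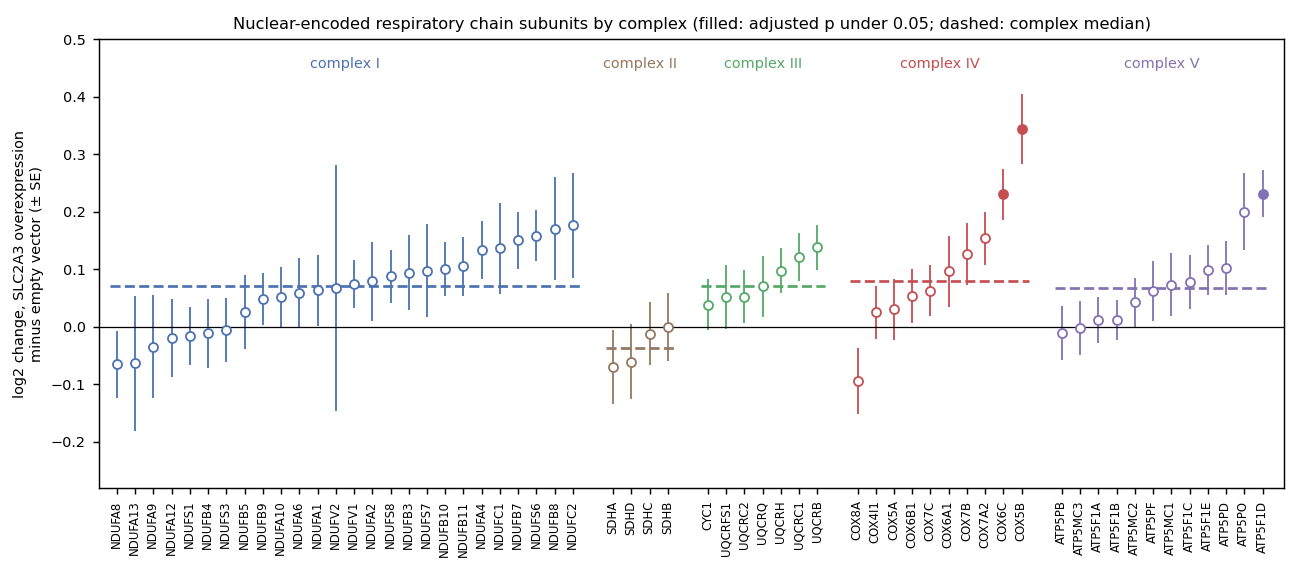
Log2 change of each of the 59 subunits, SLC2A3 overexpression minus empty vector, ordered within complexes I to V, with bars of ± 1 SE from limma. Filled points have an adjusted p under 0.05 and dashed lines are complex medians. The filled points are COX6C and COX5B in complex IV and ATP5F1D in complex V, and the complex II median lies below 0.

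Complex I had a median log2 change of 0.07, with 19 of 26 members positive, 0 called by limma, 1 by edgeR, 4 with an unadjusted p under 0.05 and 6 without overlap. The tip of its peripheral arm oxidises NADH and includes NDUFV1, which binds the flavin cofactor, and NDUFS1 and NDUFV2, which hold iron-sulfur clusters. NDUFV1 had 11435, 10715 and 11493 normalised reads in SLC2A3 overexpression libraries and 10258, 11044 and 10630 in empty vector libraries. These overlapped, at a log2 change of 0.08 (SE 0.042, limma adjusted p = 0.515). NDUFS1 averaged 3254 ± 48.8 in SLC2A3 overexpression and 3292 ± 118 in empty vector (SD, n = 3 each), a log2 change of -0.02. NDUFV2 had the fewest normalised reads of all members, 81.6 ± 10.2 in SLC2A3 overexpression and 77.9 ± 11.3 in empty vector, and its log2 change of 0.07 had an SE of 0.214.

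At the base of that arm, next to the ubiquinone site, NDUFS7 and NDUFS8 hold the last clusters of the electron path. NDUFS8 had 4678, 4526 and 4728 normalised reads in SLC2A3 overexpression libraries and 4472, 4363 and 4273 in empty vector libraries. The groups were apart, but the log2 change of 0.09 did not pass (limma adjusted p = 0.476). NDUFS7 averaged 983 ± 84.5 in SLC2A3 overexpression and 919 ± 88.0 in empty vector, with overlap. The accessory subunits of the NDUFB series, in the membrane arm, were positive for 7 of 8, with a median log2 change of 0.10 and 3 without overlap. Among the other membrane-arm subunits lay both extremes of complex I. NDUFC2 had the highest log2 change, 0.18 (SE 0.091, limma adjusted p = 0.462), and NDUFA8 the lowest, -0.06 (SE 0.058, limma adjusted p = 0.757).

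NDUFA4 carries a complex I name and is now assigned to complex IV. It had 3031, 3013 and 2960 normalised reads in SLC2A3 overexpression libraries and 2692, 2736 and 2777 in empty vector libraries. The groups did not overlap, at a log2 change of 0.13 (limma adjusted p = 0.237). Counted with complex IV, an alternative chosen after seeing the data, it takes that complex's median to 0.10 and leaves complex I at 0.07.

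Complex II was the only complex with a negative median log2 change, -0.04, but without both replicate 2 libraries that median was 0.0044. With all libraries, 0 of its 4 members were called by limma, edgeR or DESeq2 or had an unadjusted limma p under 0.05. SDHA, which oxidises succinate, had 1660, 1470 and 1686 normalised reads in SLC2A3 overexpression libraries and 1753, 1694 and 1603 in empty vector libraries. SDHB, the iron-sulfur subunit, had 2445, 2348 and 2158 in SLC2A3 overexpression libraries and 2172, 2385 and 2392 in empty vector libraries. Both genes overlapped between groups, with log2 changes of -0.07 (SE 0.065, limma adjusted p = 0.767) and 0.00 (SE 0.059). The membrane anchors SDHC and SDHD had log2 changes of -0.01 and -0.06 and also overlapped. The 4 annotated pseudogenes of SDHA held 603 normalised reads in SLC2A3 overexpression and 649 in empty vector, 38.1% of the SDHA level. No test of complex II against the other complexes was made, and with 4 members its median rests on few values.

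Complex III was positive for all 7 members, with a median log2 change of 0.07, 0 called by limma, 1 by edgeR, 3 with an unadjusted p under 0.05 and 2 without overlap. The electron-carrying subunits had the lowest log2 changes. CYC1, cytochrome c1, averaged 7004 ± 264 normalised reads in SLC2A3 overexpression and 6819 ± 224 in empty vector (SD, n = 3 each), the lowest log2 change of the complex at 0.04. UQCRFS1, the Rieske iron-sulfur protein, averaged 2275 ± 32.6 in SLC2A3 overexpression and 2197 ± 108 in empty vector, at 0.05. The highest was UQCRB at 0.14. UQCRC1, a core protein, had 9134, 9682 and 9245 in SLC2A3 overexpression libraries and 8285, 8715 and 8790 in empty vector libraries. Its groups did not overlap, at a log2 change of 0.12 (limma adjusted p = 0.18).

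Complex IV had the widest spread, with a median log2 change of 0.08, 9 of 10 members positive, 2 called by limma and 6 without overlap. Beside COX5B and COX6C, COX7A2, a small membrane subunit, had 6298, 6283 and 6215 normalised reads in SLC2A3 overexpression libraries and 5655, 5921 and 5334 in empty vector libraries. The groups were apart, at a log2 change of 0.15 with adjusted p of 0.0997 in limma and 0.0547 in edgeR. COX4I1, a regulatory subunit, had 15653, 14161 and 14259 in SLC2A3 overexpression libraries and 13638, 15488 and 14192 in empty vector libraries. These overlapped widely, at 0.03. COX8A, also a small membrane subunit, had the lowest log2 change of all 59 members, -0.09 (SE 0.058, limma adjusted p = 0.578), with 2627, 2285 and 2543 in SLC2A3 overexpression libraries and 2609, 2770 and 2571 in empty vector libraries. Subunits of 1 enzyme thus spanned log2 changes of -0.09 to 0.34.

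Complex V was positive for 10 of 12 members, with a median log2 change of 0.07, 1 called by limma and 5 without overlap. In its catalytic head the groups overlapped. ATP5F1B, the catalytic beta subunit, had 26286, 27341 and 26718 normalised reads in SLC2A3 overexpression libraries and 26842, 26672 and 26129 in empty vector libraries. ATP5F1A, the alpha subunit, averaged 19946 ± 912 in SLC2A3 overexpression and 19777 ± 723 in empty vector. Both had a log2 change of 0.01, with SE of 0.035 for ATP5F1B and 0.040 for ATP5F1A. ATP5F1C, ATP5F1D and ATP5F1E, the gamma, delta and epsilon subunits, were all without overlap and higher with SLC2A3 overexpression, at log2 changes of 0.08, 0.23 and 0.10, and of these ATP5F1D passed limma.

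In the peripheral stalk, ATP5PO had 1589, 1723 and 1942 normalised reads in SLC2A3 overexpression libraries and 1571, 1510 and 1478 in empty vector libraries. The groups were narrowly apart, at a log2 change of 0.20 (SE 0.067, limma adjusted p = 0.163). ATP5PB, in the same stalk, had the lowest log2 change of the complex at -0.01. The 3 genes of the proton-carrying c-ring encode the same mature protein. ATP5MC1, ATP5MC2 and ATP5MC3 had log2 changes of 0.07, 0.04 and 0.00, and all overlapped. ATP5MC2 was the most abundant of the 3, at 9620 ± 96.9 normalised reads in SLC2A3 overexpression and 9345 ± 480 in empty vector (SD, n = 3 each).

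The complexes were then compared library by library, as the median over members of the log2 difference from each member's empty vector mean. Complex I gave 0.07, 0.06 and 0.05 in SLC2A3 overexpression libraries and -0.02, 0.04 and -0.03 in empty vector libraries. Complex II gave -0.06, -0.01 and -0.03 in SLC2A3 overexpression libraries and 0.06, 0.03 and -0.05 in empty vector libraries, the only complex that overlapped. Complex III gave 0.09, 0.08 and 0.09 in SLC2A3 overexpression libraries and 0.00, 0.02 and -0.03 in empty vector libraries. The margin was narrowest for complexes I and IV, in both through empty vector replicate 2. Complex IV gave 0.11, 0.09 and 0.08 in SLC2A3 overexpression libraries and 0.00, 0.06 and -0.03 in empty vector libraries. Complex V gave 0.06, 0.07 and 0.07 in SLC2A3 overexpression libraries and 0.02, 0.01 and -0.03 in empty vector libraries.

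**Figure D3:**
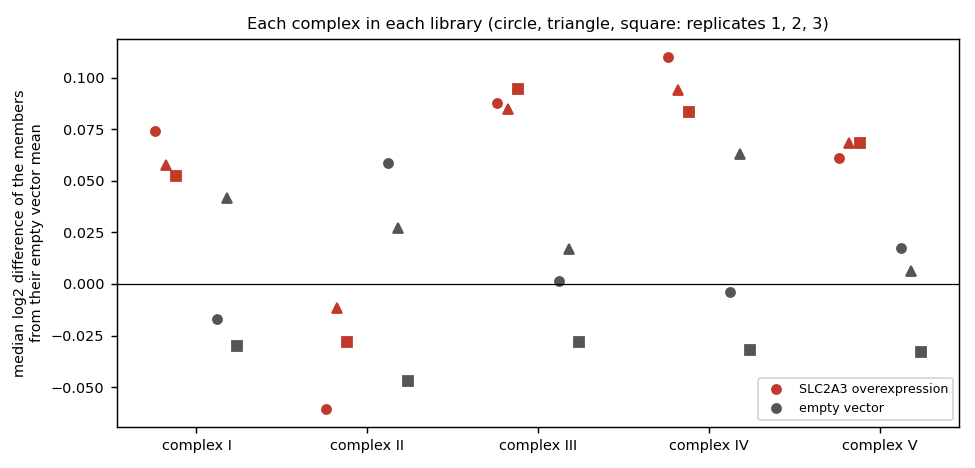
Median log2 difference of each complex's members from their empty vector mean, in each library (red, SLC2A3 overexpression; grey, empty vector; circle, triangle and square for replicates 1, 2 and 3). The red points lie above all grey points for complexes I, III, IV and V and overlap them for complex II, and grey triangles (empty vector replicate 2) lie nearest to red in complexes I and IV.

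Levels between genes were compared per kb of transcript, using the median spliced length of protein-coding transcripts. Member transcripts are short, with a median of 785 bases beside 2491 for tested protein-coding genes. In complex I levels ran from 9470 normalised reads per kb for NDUFS6 to 85.8 for NDUFV2. In complex III they ran from 23310 for UQCRH, an acidic hinge protein, to 644 for UQCRFS1. Complex IV spanned 18344 for COX4I1 to 2667 for COX6A1, and complex V 14500 for ATP5F1B to 1755 for ATP5PO. In complex II, SDHC was highest at 9723 and SDHA lowest at 780, but SDHC's annotated transcripts have a median length of 460 bases while its exons together cover 14160. With the union of exons as length, SDHB was highest in complex II and NDUFB7 in complex I. In complex IV, COX8A was then highest and COX7B lowest. The order within complexes I, II and IV thus depends on the length chosen.

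Summed per kb, complex I averaged 86497 ± 1540 normalised reads per kb in SLC2A3 overexpression and 81884 ± 1957 in empty vector (SD, n = 3 each), 5.63% higher. Complex III was 7.16% higher, complex IV 7.16% and complex V 5.26%, and in these 4 complexes the groups did not overlap. Complex II averaged 14019 ± 597 in SLC2A3 overexpression and 14198 ± 604 in empty vector, a difference of -1.26% with overlap. With the union of exons it was -1.62%, and the groups did not overlap.

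**Figure D4:**
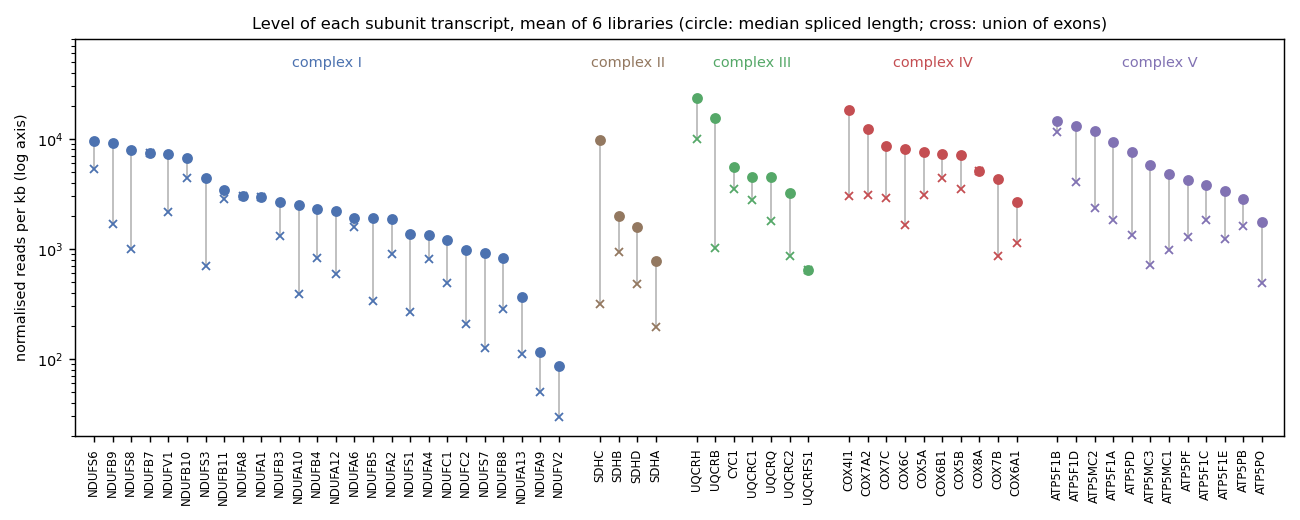
Level of each subunit transcript in normalised reads per kb, mean of the 6 libraries, on a log axis, by complex and ordered from high to low. Circles use the median spliced length and crosses the union of exons. UQCRH is highest at 23310 and NDUFV2 lowest at 85.8 by spliced length, and the largest gap between the length measures within complex II is that of SDHC.

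Reads of these genes could be shared with copies. Of the members, 40 have annotated pseudogenes, 146 in all, and those held over 5% of the member's reads for SDHA and for NDUFV2 (19.6%). Over 10% of exon bases are shared with another gene on the same strand for 11 members and lie opposite another gene for 13. The sources used here do not say whether counting used strand, so values of these members are uncertain to that extent.

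Other genes of the pathway gave few calls. Of 21 further nuclear-encoded subunits, 1 rose by limma and 0 fell, with 19 positive and a median log2 change of 0.08. Of all tested genes, 0.692% rose, 0.8% fell and 50.3% were positive. ATP5ME, the e subunit of ATP synthase, had 1548, 1536 and 1445 normalised reads in SLC2A3 overexpression libraries and 1170, 1242 and 1174 in empty vector libraries. Its groups were well apart, at a log2 change of 0.34 (SE 0.064, limma adjusted p = 0.0033). ATP5MJ, another ATP synthase subunit, had a log2 change of 0.20 and passed edgeR (adjusted p = 0.0451) but not limma (0.0875).

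Of the 13 subunits encoded in mitochondrial DNA, 0 rose and 1 fell by limma, where 0.692% and 0.8% of all tested genes did. The median log2 change was -0.09 and 12 were negative, whereas 50.3% of all tested genes were positive. By edgeR 3 fell, MT-ND1, MT-ND4 and MT-ND4L, where 1.76% of its tested genes did. An unadjusted limma p under 0.05 was reached by 8, beside 11.8% of all tested genes. MT-ND4L, a membrane subunit of complex I, had 10955, 11076 and 12388 normalised reads in SLC2A3 overexpression libraries and 13749, 11984 and 13730 in empty vector libraries. The groups overlapped, at a log2 change of -0.20 (limma adjusted p = 0.0407). It lost the call with a pseudocount of 0.1 and without SLC2A3 overexpression replicate 1 or 2 or empty vector replicate 1 or 3. The mitochondrially encoded subunits took 3.43%, 3.49% and 3.62% of normalised reads in SLC2A3 overexpression libraries and 3.85%, 3.49% and 3.77% in empty vector libraries. Empty vector replicate 2 again stood with the SLC2A3 overexpression libraries. Without it, 6 mitochondrially encoded genes were lower by limma, where 0.91% of all tested genes were. Without both replicate 2 libraries 7 were lower, where 1.02% of all tested genes were.

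None of 16 complex I assembly factors or 32 assembly factors of complexes II to V passed limma, and their median log2 changes were 0.04 and 0.04, with 2 and 3 genes at an unadjusted p under 0.05. None of 17 genes for mobile carriers and other electron donors passed either, and 2 had an unadjusted p under 0.05. CYCS, cytochrome c, had 5220, 5320 and 5305 normalised reads in SLC2A3 overexpression libraries and 4757, 4988 and 4826 in empty vector libraries. The groups were apart, at a log2 change of 0.12 (limma adjusted p = 0.224). Of 7 tested genes for ATP export and proton return and 11 tested regulators of mitochondrial biogenesis, 0 passed limma, and 0 and 1 had an unadjusted p under 0.05. edgeR called 0 genes in each of these lists. Transcripts of the promoter-motif factors differed by log2 changes of 0.10 for NRF1, -0.12 for GABPA and 0.07 for YY1 (limma adjusted p = 0.678, 0.645 and 0.579). Of 7 tissue-restricted subunit isoforms, COX4I2, COX6A2 and COX7B2 were listed at 0, and the 4 tested gave 0 calls by limma or edgeR, with 1 at an unadjusted p under 0.05. COX7A1, the heart and muscle form of COX7A2, averaged 28.6 ± 5.85 normalised reads in SLC2A3 overexpression and 15.4 ± 0.744 in empty vector (limma adjusted p = 0.411).

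The calls were recomputed under 16 alternatives of filter, scaling, test and libraries left out. COX5B passed in all 16, with log2 changes of 0.27 to 0.43, and ATP5F1D in all 16, with 0.21 to 0.25. COX6C passed in 15, with 0.21 to 0.25. NDUFS6 passed in 7, COX7A2 in 4, UQCRB in 3, UQCRC1 and NDUFB7 in 2 each and UQCRH in 1. The complex II members passed in 0 of 16.

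**Figure D5:**
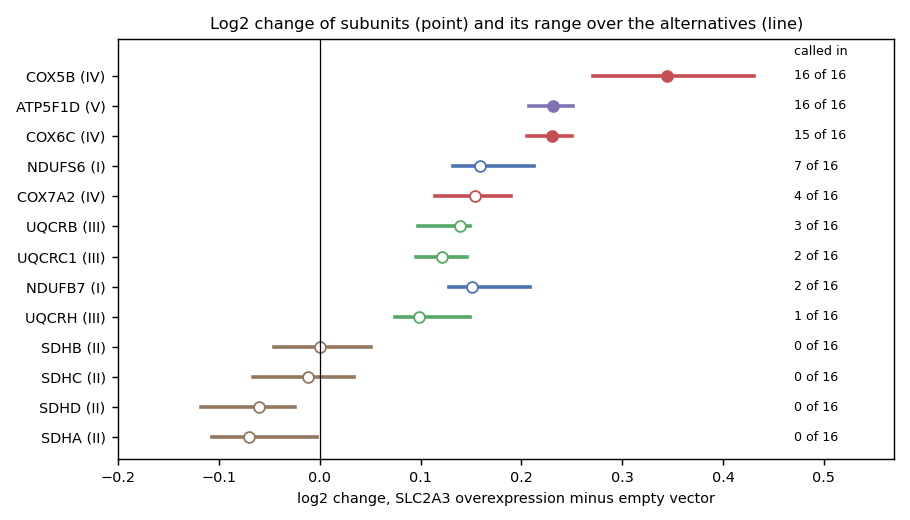
Log2 change, SLC2A3 overexpression minus empty vector, of the members called in at least 1 setting and of the 4 complex II subunits. Points are the reported values (filled where limma's adjusted p is under 0.05) and lines the range over 16 alternatives, with the number of alternatives in which each was called at right. COX5B and ATP5F1D were called in 16 of 16, COX6C in 15 and the complex II subunits in 0.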

How the data were processed

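Gene-level values of 6 libraries were analysed, 3 of SLC2A3 overexpression and 3 of empty vector. Trizol RNA and a NEBNext Ultra II Directional kit were used, per the labels' protocols. BWA, TopHat2 and hg38 are named in the submitters' processing notes, without roles or versions, and the sources used here do not give the annotation. The authors deposited a normalised signal. Judged from the numbers themselves, it is a read count per gene over a single scaling factor for each library, since 100% were whole multiples of what 1 read is worth, to within 0.001 reads. For empty vector replicates 2 and 3 that worth is so near 1 that the step could not be verified separately. The edgeR and DESeq2 results rest on it, as do the alternatives that rescaled recovered reads by their total or upper quartile.

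The design named limma-trend for such values. Genes reaching 1 in 3 or more libraries were kept (28015), and limma 3.58.1 (R 4.3.3) was fitted to log2(value + 1) with a group term alone. Benjamini-Hochberg adjustment ran over all 28015, and 0.05 was the threshold. Reported log2 changes include that pseudocount, which understates changes of low genes. The model was tested on simulated counts in which 200 genes were changed by more than any member here. That test does not cover changes as small as those of the members. edgeR 4.0.16 and DESeq2 1.42.0 were run on the recovered reads as alternatives. Coordinates, lengths and pseudogene names came from GENCODE 29 (GRCh38), and promoters from RefSeq.

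The members and lists were chosen with earlier results of these data known, so lists are described by counts and medians without a test. Named with values were members called by limma or edgeR, the highest and lowest change and level per complex, catalytic or electron-carrying members, and called pathway genes. NDUFA4, NDUFS8, COX7A2, UQCRC1, ATP5PO, ATP5F1C, ATP5F1E, ATP5PB, CYCS, COX7A1, ATP5MJ, NRF1, GABPA and YY1 were added after their values were seen.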

Additional observations from a re-analysis of the deposited data

How the results depend on the processing

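The 3 called members kept their sign under every alternative. The sign differed from the reported one in at least 1 alternative for 16 other members, none of them called in any, and for the complex II median. The number of members called by limma, 3 in the reported fit, was 8 with DESeq2, 6 with a filter of at least 50 in at least 3 libraries, 5 with edgeR, 5 with a length and GC trend removed and 7 without both replicate 2 libraries, all higher. It ranged from 2 to 5 when 1 library was left out. The share of all tested genes that rose moved too, from 0.692% in the reported fit. It was 3.49% with DESeq2, 2.41% with the filter of 50 and 1.53% with edgeR. It was 1.3% with the trend removed and 1% without both replicate 2 libraries. With 1 library left out it ran from 0.372% to 0.828%. Called pathway genes, 2 in the reported fit, were 4 with DESeq2, 5 with the filter of 50, 5 with edgeR, 5 with the length and GC trend removed, 4 with no filter, 1 with a pseudocount of 0.1 and 9 without both replicate 2 libraries, and ranged from 1 to 7 with 1 library left out. Of all tested genes, 0.8% fell in the reported fit, 3.12% with the filter of 50 and 1.76% with edgeR. The share that fell was 0.761% with the trend removed and 1.02% without both replicate 2 libraries. With no filter 0.63% rose and 0.758% fell. With a pseudocount of 0.1 the shares were 0.5% and 0.514%. Without both replicate 2 libraries the median log2 change was 0.11 for complex I, 0.0044 for complex II, against -0.04 as reported, 0.10 for complex III and 0.12 for complex IV. For complex III it ranged from 0.0452 to 0.0924 with 1 library left out. The cause of these shifts was not tested. With the union of exons as length, which is longer by construction, the summed level in SLC2A3 overexpression was 41026 normalised reads per kb for complex I, 1921 for complex II, 21209 for complex III, 29602 for complex IV and 29859 for complex V. With the replicate number as a block, 3 members and 3 pathway genes were called. Deviations of same-numbered libraries correlated at -0.08, 0.00 and 0.00 over 13277 genes, and those of differently numbered libraries at -0.05 to 0.05. With 3 libraries per group these values cannot decide whether equal numbers pair the samples. Scaling moved the median of all genes by less than 0.01. Read numbers were ample for most members but few for NDUFV2. That gene shares 28.4% of its exon bases with another gene on the same strand, and its pseudogene held 19.6% of its level. Whether reads were lost to these was not tested, so its low value may not be its true level.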
